A study of Gallus gallus with 20 samples.

Results

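Scutate scales misexpressing beta-catenin were compared with normal feather in the chick embryo at embryonic day 16. The comparison uses 4 of the 20 samples of the series, 2 of scale (labelled beta-catenin, replicates 1 and 2) and 2 of feather (replicates 1 and 2), taken by their labels and not by any measured value. All embryos were White Leghorn. The scale samples were dissected from scutate scale, the large overlapping scales of the shank and foot, of embryos given beta-catenin with RCAS, a replication-competent avian retrovirus. Per the labels' protocols, RCAS virus was injected at embryonic day 3 into the amniotic cavity and hind limb, or RCAS plasmid was injected and electroporated. The feather samples were dorsal skin with no virus listed. Body site, virus and transgene therefore differ together between the 2 groups and cannot be told apart. Scales given RCAS with green fluorescent protein (GFP, 2 samples) are set beside them as the scale control. Scales exposed to retinoic acid at embryonic day 9 (RA, 2 samples) and scales misexpressing Sox18 (3 samples) are used as the scale groups with the most feather keratin RNA after feather. The p-values rest on a spread within groups that is shared by all 20 samples in 9 groups, not on the 4 compared samples alone. The labels do not say that replicates came from separate embryos, so that spread may be technical.

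Keratins are the structural proteins of the epidermis and its appendages. Alpha keratins form the intermediate filaments of all vertebrate epithelia, in pairs of one acidic and one basic protein, and change as a keratinocyte moves from the basal layer to the cornified surface. Birds and reptiles also have beta keratins (corneous beta proteins), small proteins that pack into the hard material of scales, claws, beaks and feathers and lie in large tandem clusters of near-identical copies. The feather keratins form the barbs, barbules and shaft of the feather. Beta-catenin carries the canonical Wnt signal into the nucleus, and Wnt signalling through beta-catenin acts early in the formation of the feather placode.

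The deposited table gives 180 keratins by name and 16110 rows by Ensembl chicken gene identifier, all in RPKM (reads per kilobase of gene length, scaled to the mapped reads of the sample). The names give a class and a chromosome: 97 feather keratins (FK), 3 feather-like keratins (FL), 12 claw keratins, 18 scale keratins, 16 keratinocyte beta keratins (Ktn), 33 alpha keratins (KRT) and 1 other beta keratin, Chr6_BKJ. "Un" in a name, as in ChrUn10_FK2, marks a keratin that the name ties to a chromosome without a placement on it. Of the 180, 163 reached 1 RPKM in at least 2 of the 20 samples and were tested. The 17 that did not reached at most 0.9 RPKM in any beta-catenin or feather sample. Read totals are not in the table, so the depth behind each value is unknown. In bulk tissue, fewer cells of a type and less RNA per cell cannot be told apart.

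The keratin classes separated the feather samples from the beta-catenin and GFP scales. Feather keratins made up 98.2% of the keratin RPKM in both feather samples, where claw keratins made up at most 0.00893% and scale keratins at most 0.0568%. In the beta-catenin scales, feather keratins made up 22.9% and 37.9% of the keratin RPKM, claw keratins 30.6% and 22.4%, and scale keratins 29.4% and 22.5%. In the GFP scales the feather keratin share was 16.5% and 17.1%. Keratins as a whole took 74.4% and 68.8% of all RPKM in feather, against 31.0% and 29.9% in the beta-catenin scales. Because RPKM is a share of the reads, this large keratin share lowers the deposited value of every other row in feather. Counts by class are therefore given both as deposited and after median-ratio scaling, which sets the typical row equal between samples. It moved the median difference of all rows from 0.84 to 0.03 on the log2 scale. Between the groups its factors differed by 1.17 log2 units, against 0.64 for the summed non-keratin RPKM. It therefore shifts values by more than the fall of the non-keratin sum in feather. Scaling on that sum instead left the median at 0.41, with 6921 of all tested rows higher and 2296 lower.

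**Figure D1:**
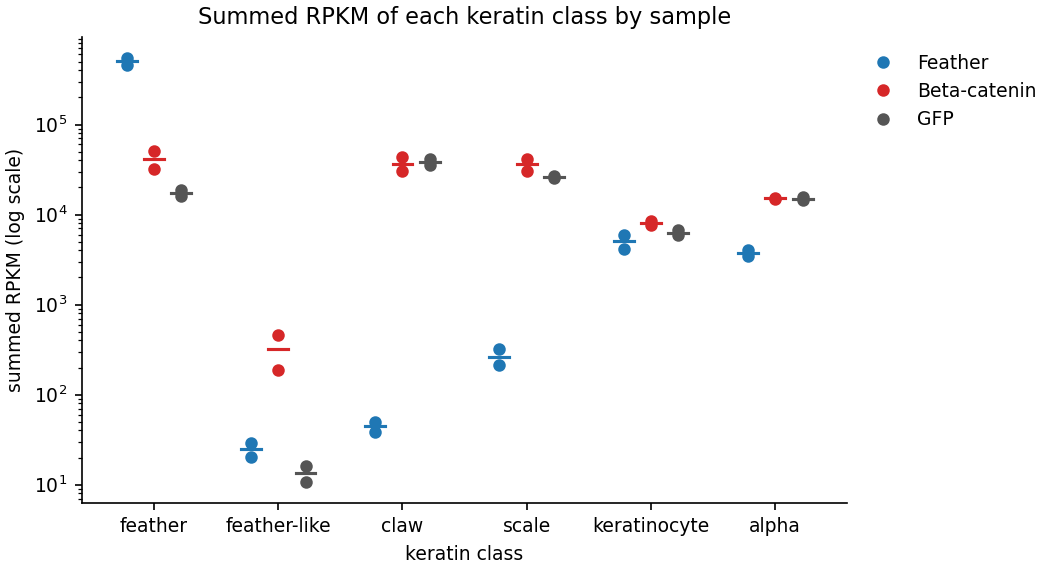
Summed RPKM of each keratin class (log axis) in the beta-catenin scales, the feather and the GFP scales. Points are samples and short lines are means of 2 samples. Feather keratins are highest in feather, claw and scale keratins stand far above feather in both groups of scales, and the feather keratin sum of the beta-catenin scales lies between those of feather and the GFP scales.

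The beta-catenin scales lacked most of the feather keratin RNA of a feather. The summed feather keratin level was 32316 and 51394 RPKM in the beta-catenin scales and 548770 and 462430 RPKM in feather. The groups did not overlap, and the mean of 41855 ± 13490 RPKM (SD, n = 2) was 12.1-fold below the 505600 ± 61052 RPKM (SD, n = 2) of feather, or 8.28% of it. The GFP scales held 17368 ± 2005 RPKM (SD, n = 2), so the beta-catenin scales stood 2.41-fold above the control scales on this measure. With 2 samples against 2, the smallest two-sided exact p is 0.333, and the class sums were not tested.

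In the fit across all rows (limma on log2(RPKM + 1), adjusted p below 0.05), 65 of the 84 tested feather keratins were lower in the beta-catenin scales than in feather, 5 were higher and 14 did not pass. The background was 9.59% of all 11863 tested rows lower and 77.5% higher. The median difference of the 84 was -3.07 on the log2 scale, against 0.84 for all rows. After median-ratio scaling, 74 were lower and 3 higher, against a background of 35.7% lower and 37.3% higher. On the scale of percent of the feather level, 8 of the 84 stood below 1%, 30 between 1 and 10%, 31 between 10 and 50%, and 15 at 50% or more. The direction was shared by most of the class, while its size varied widely and differed between the chromosomes given in the names. Without beta-catenin replicate 2 or without feather replicate 2, 3 feather keratins were higher in place of 5.

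**Figure D2:**
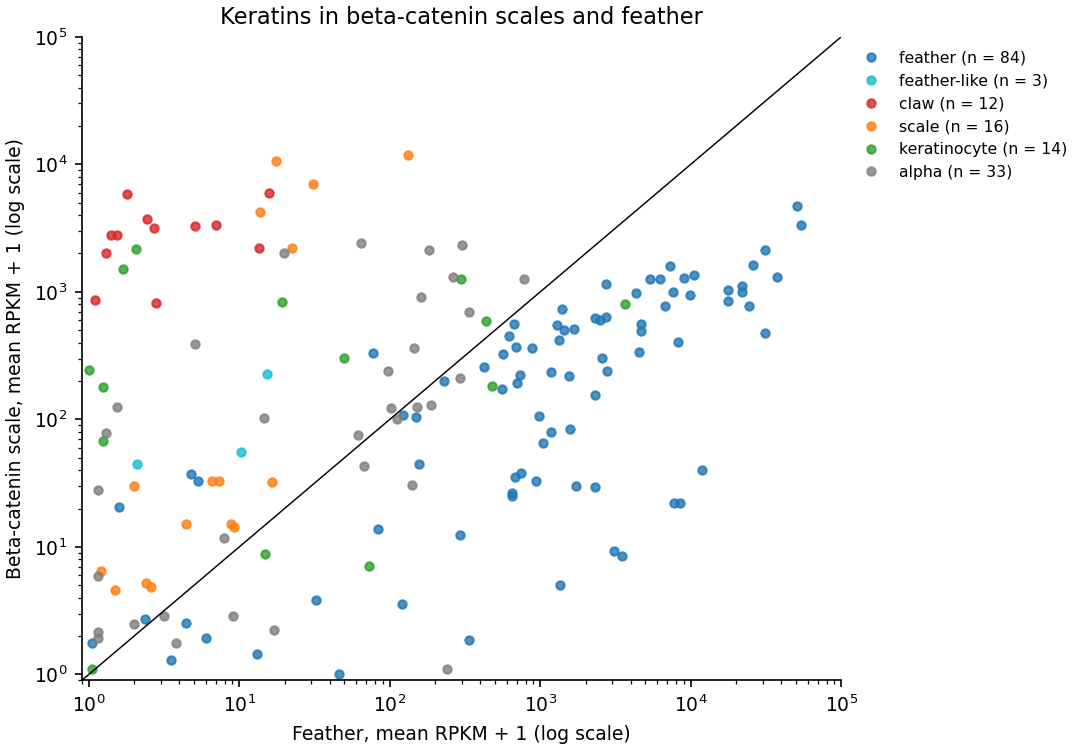
Mean RPKM + 1 of each tested keratin in feather (x) and in the beta-catenin scales (y), both on log axes and coloured by class, with the line of equal level. Each point is 1 keratin. Most feather keratins lie below the line, claw keratins and the abundant scale keratins lie far above it, and alpha keratins lie on both sides.

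The feather keratins named for chromosome 10 were the most completely missing. All 7 (3 placed, 4 unplaced) were lower in the beta-catenin scales, by a median of 8.41 log2 units, and their levels were at most 0.333% of feather. Chr10_FK3 stood at 5.4 and 9.6 RPKM in the beta-catenin scales and at 2941 and 3989 RPKM in feather. It was 462-fold lower, a log2 difference of -8.70 (SE 0.34; limma adjusted p = 1.05e-12). ChrUn10_FK2, an unplaced copy, had 13.6 and 29.0 RPKM against 7616 and 9253 RPKM, a log2 difference of -8.65. ChrUn10_FK3 had 13.4 and 29.0 RPKM against 6568 and 8915 RPKM, a log2 difference of -8.52. Chr10_FK1, named because it was listed at 0 in both beta-catenin samples, had 38.5 and 51.7 RPKM in feather. All 7 passed as lower after median-ratio scaling too. The background of all rows called lower was 9.59% as deposited and 35.7% after scaling. The groups did not overlap for any of the 7, and the same held for 147 of the 163 tested keratins. The share of all tested rows without overlap was not counted, so the lack of overlap does not set the 7 apart. The median level of the 7 was 0.267% of feather in the beta-catenin scales and 0.0646% in the GFP scales.

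The feather keratins named for chromosome 25 were all lower as well, but less far. All 14 (13 placed, 1 unplaced) passed the test as lower, as deposited and after scaling. Their median difference was -4.05 on the log2 scale and their level 3.48 to 22.8% of feather. The background of all rows called lower was 9.59% as deposited and 35.7% after scaling. The most abundant keratin of feather, Chr25_FK11, had 56652 and 51743 RPKM there and 2581 and 4085 RPKM in the beta-catenin scales. That is 16.3-fold lower, a log2 difference of -4.06 (SE 0.45; limma adjusted p = 2.13e-07). Its GFP values, 2488 and 2280 RPKM, lie just below the lower beta-catenin value, and the difference between beta-catenin and GFP scales did not pass the test (log2 difference 0.45, limma adjusted p = 0.501). Chr25_FK7 had 41136 and 33318 RPKM in feather, 849 and 1743 RPKM in the beta-catenin scales and 123 and 127 RPKM in the GFP scales. It was the chromosome 25 keratin with the lowest level relative to feather, at 3.48%, and was still higher than in the GFP scales by 3.27 log2 units (limma adjusted p = 8.71e-04).

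Single feather keratins carry the names of chromosomes 1 and 7. Chr1_FK1 was the second most abundant keratin of feather, at 55380 and 45411 RPKM, and had 3434 and 6017 RPKM in the beta-catenin scales. It was 10.7-fold lower, a log2 difference of -3.46 (SE 0.43; limma adjusted p = 9.35e-07), and the groups did not overlap. Chr7_FK1 went the other way, with 9.2 and 29.9 RPKM in the beta-catenin scales against 0.9 and 0.3 RPKM in feather and 0.5 and 0.1 RPKM in the GFP scales. Its log2 difference from feather was 3.50 (SE 0.47; limma adjusted p = 2.28e-06). This keratin is scarce beside Chr1_FK1, even where it is highest. Of the 11 feather keratins named for chromosome 2, only 2 unplaced ones were tested, and 1 of these was lower.

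**Figure D3:**
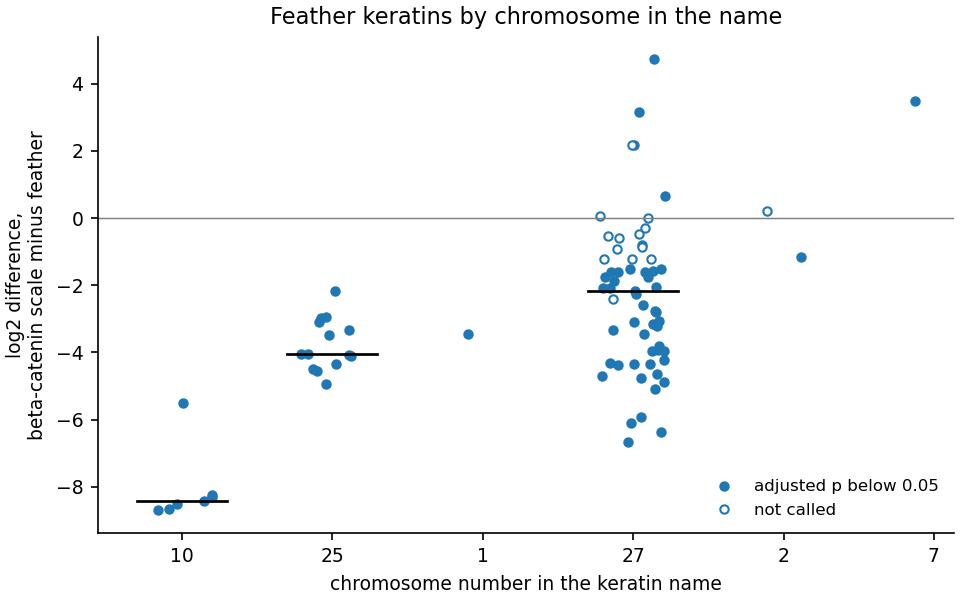
Difference of each tested feather keratin between beta-catenin scales and feather, on the log2(RPKM + 1) scale, grouped by the chromosome in its name. Filled points passed the test, open points did not, and black lines are medians of -8.41 for chromosome 10, -4.05 for chromosome 25 and -2.17 for chromosome 27.

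Of the 15 feather keratins at 50% or more of the feather level, 13 carry a chromosome 27 name, with 1 each from chromosomes 2 and 7. Chromosome 27 names make up 59 of the 84 tested feather keratins, so much of this count follows from the makeup of the list. The other 2 were near 0 in feather, where Chr7_FK1 had a mean of 0.6 RPKM. The unplaced chromosome 2 keratins summed to a mean of 3.85 RPKM there. Most of the chromosome 27 keratins were nevertheless lower than in feather. Of 59 tested (44 placed, 15 unplaced), 42 were lower, 4 were higher and 13 did not pass, with a median difference of -2.17 on the log2 scale and a median level of 20.2% of feather. After median-ratio scaling 51 were lower and 2 higher. The background of all rows was 9.59% lower and 77.5% higher as deposited, and 35.7% and 37.3% after scaling. The unplaced copies had a median of -3.45 and the placed ones of -2.08. The 59 ranged from ChrUn27_FK16 at 0.252% of feather, named as the lowest, to keratins above the feather level.

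The keratins closest to feather level among the abundant ones were Chr27_FK7 and Chr27_FK5. Chr27_FK7 had 371 and 537 RPKM in the beta-catenin scales and 1061 and 184 RPKM in feather, a log2 difference of 0.01 (SE 0.61) that did not pass the test. Chr27_FK5 had 459 and 665 RPKM against 1076 and 259 RPKM, a log2 difference of 0.06 (SE 0.62). For both keratins the beta-catenin values lie between the 2 feather samples, which differed several-fold from each other. Without feather replicate 2 the differences became -1.25 and -0.96 for Chr27_FK7 and Chr27_FK5. Without feather replicate 1 they became 1.27 and 1.09, so the direction depended on which feather sample was left out. Chr27_FK7 was as abundant in the GFP scales, at 520 and 564 RPKM, whereas Chr27_FK5 had 111 and 118 RPKM there and was higher in the beta-catenin scales by 2.26 log2 units (limma adjusted p = 0.0143).

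Some chromosome 27 keratins that were low in the control scales did not pass the test against feather as deposited. The 3 that follow were chosen after their values were seen, and a missed threshold does not show that they reached the feather level. Their values are given as deposited only. Of the 59 tested chromosome 27 keratins, 13 did not pass as deposited, 6 after median-ratio scaling and 7 after scaling on the summed non-keratin RPKM. Chr27_FK37 had 66.6 and 149 RPKM in the beta-catenin scales, 133 and 112 RPKM in feather, and 0 and 0.1 RPKM in the GFP scales. Its difference from feather was -0.29 log2 units (limma adjusted p = 0.671) with overlapping groups, and it was higher than in the GFP scales by 6.59 log2 units (limma adjusted p = 2.25e-06). Chr27_FK30 had 241 and 497 RPKM, against 871 and 502 RPKM in feather and 10 and 13.7 RPKM in the GFP scales. Chr27_FK39 had 815 and 1705 RPKM against 6908 and 5583 RPKM in feather and 1.4 and 2.9 RPKM in the GFP scales. Its beta-catenin mean was 20.2% of feather and its groups did not overlap, with a log2 difference of -2.40 (SE 1.19, limma adjusted p = 0.0696).

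Chr27_FK36, ChrUn27_FK2 and Chr7_FK1 were the feather keratins furthest above feather. The other two that passed as higher were Chr27_FK18 and Chr27_FK10, named after their values were seen, with log2 differences of 2.17 and 0.66. Chr27_FK36 had 354 and 301 RPKM in the beta-catenin scales, and 152 and 0 RPKM in feather. Its log2 difference of 4.73 (SE 1.36; limma adjusted p = 3.80e-03) rests on the feather sample listed at 0: without feather replicate 2 it was 1.10 (limma adjusted p = 0.112). It also did not pass with only the 2 groups in the fit (limma adjusted p = 0.152). ChrUn27_FK2 had 25.7 and 46.7 RPKM against 6.5 and 1.1 RPKM in feather, and was listed at 0 in both GFP samples. Its log2 difference from feather was 3.17 (SE 0.62; limma adjusted p = 1.40e-04).

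A few chromosome 27 keratins stood below both feather and the control scales, and are named here after their values were seen. Of the 59 tested, 6 were lower than in the GFP scales as deposited and 5 after median-ratio scaling. The background of all rows lower than in the GFP scales was 15.2% and 12.5%, so these counts do not exceed it. Chr27_FK13 had 209 and 258 RPKM in the beta-catenin scales, 1588 and 782 RPKM in feather, and 869 and 1204 RPKM in the GFP scales. Chr27_FK2 had 32.6 and 30.6 RPKM, against 1275 and 600 RPKM in feather and 669 and 833 RPKM in the GFP scales. The beta-catenin range of each lay below every value of both other groups, and Chr27_FK2 was lower than feather by 4.75 log2 units (limma adjusted p = 1.71e-06) and differed from GFP by -4.52 (limma adjusted p = 9.47e-05).

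**Figure D4:**
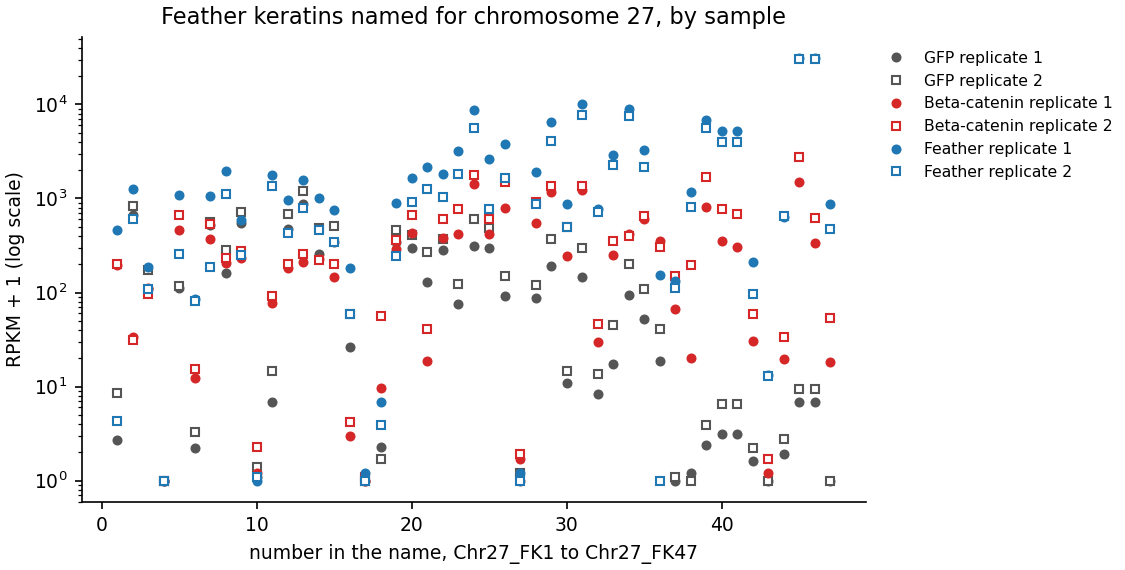
RPKM + 1 (log axis) of the 47 feather keratins placed on chromosome 27 by name, in each beta-catenin, feather and GFP sample, in the order of the number in the name. The beta-catenin points lie far above the GFP points in the group that starts at Chr27_FK37 and meet the feather points only at some keratins, such as Chr27_FK37 itself.

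Near-identical copies can share reads, and how reads were divided between them is not given in the sources used here. In 4 pairs of chromosome 27 feather keratins with a mean of at least 100 RPKM, the 2 members lay within 2% of each other in both feather samples. Chr27_FK45 and Chr27_FK46, for example, had 31242 and 31244 RPKM in feather replicate 1. In the beta-catenin scales the same pair had 1490 and 337 RPKM in replicate 1. The levels of single members of such pairs are uncertain.

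Between the replicates of each group, some sets of keratins differed in opposite directions. The share of all tested rows in each order was not counted. In the beta-catenin scales, replicate 2 was above replicate 1 in 76 of the 84 feather keratins, by a median of 0.67 log2 units, while replicate 1 was above replicate 2 in 12 of 12 claw keratins. In feather, replicate 1 was above replicate 2 in 55 of the 59 chromosome 27 keratins, but replicate 2 was the higher in 7 of 7 chromosome 10 keratins. Cell makeup, dissection and depth were not tested as parts of these differences.

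The 3 feather-like keratins, all named for chromosome 25, were above the feather level. All 3 passed as higher as deposited and after median-ratio scaling, beside a background of 77.5% and 37.3% of all rows higher. Chr25_FL1 had 34.8 and 74.7 RPKM in the beta-catenin scales against 9.8 and 8.9 RPKM in feather, a log2 difference of 2.33 (SE 0.36; limma adjusted p = 1.25e-05). Chr25_FL2 had 127 and 327 RPKM against 17.7 and 10.8 RPKM, a log2 difference of 3.79 (SE 0.42; limma adjusted p = 2.64e-07). Chr25_FL3 had 27.4 and 59.2 RPKM against 1.6 and 0.6 RPKM, a log2 difference of 4.34 (SE 0.40; limma adjusted p = 2.84e-08). No value overlapped between the groups, and in the GFP scales the 3 keratins lay between 0.1 and 8.8 RPKM. Their sum was 325 ± 192 RPKM (SD, n = 2) in the beta-catenin scales, 24.7 ± 6.22 RPKM (SD, n = 2) in feather and 13.6 RPKM in the GFP scales.

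Claw keratins, named for the hard sheath of the claw, were abundant in the beta-catenin scales and nearly missing from feather. All 12 were higher than in feather, as deposited and after median-ratio scaling, with a median difference of 9.90 log2 units as deposited. The background of all rows higher than in feather was 77.5% as deposited and 37.3% after scaling. Their sum was 43154 and 30389 RPKM in the beta-catenin scales, 49.9 and 38.9 RPKM in feather, and 35110 and 41691 RPKM in the GFP scales. The mean was 828-fold above feather and 0.958 times the GFP mean. Chr25_Claw4 had 7088 and 4684 RPKM against 0.9 and 0.7 RPKM in feather, a log2 difference of 11.65 (SE 0.37; limma adjusted p = 9.54e-14). Chr25_Claw8 had 3271 and 2284 RPKM against 0.3 and 0.5 RPKM, a log2 difference of 10.94. Chr25_Claw5 had 3275 and 2317 RPKM against 0.7 and 0.4 RPKM, a log2 difference of 10.80. For each of these 3 the difference from the GFP scales did not pass the test, with adjusted p from limma of 0.478, 0.911 and 0.819. The background of all rows was 7.97% higher and 15.2% lower than in the GFP scales. Near or below that background, 1 of the 12 was higher and 1 lower than in the GFP scales. Chr25_Claw11 was 2.09-fold above them (limma adjusted p = 0.0356) and Chr25_Claw10 stood at 0.531 times their level (limma adjusted p = 0.0404); both were named after their values were seen, and after median-ratio scaling 1 was higher and 0 were lower.

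Scale keratins were also kept. Their sum was 41506 and 30529 RPKM in the beta-catenin scales against 317 and 211 RPKM in feather, 136-fold higher in the mean, and 25381 and 27048 RPKM in the GFP scales. Of 16 tested, 15 were higher than in feather and none was lower, with a median of 2.21 log2 units. After median-ratio scaling 9 were higher and none lower. The background of all rows was 77.5% higher as deposited and 37.3% after scaling. A few abundant members made up most of the class. The most abundant keratins of the beta-catenin scales were Chr25_scale15 at 13624 and 9925 RPKM, Chr25_scale14 at 12503 and 8832 RPKM, and Chr25_scale16 at 7732 and 6193 RPKM. In feather Chr25_scale15 had 149 and 114 RPKM, a log2 difference of 6.47 (SE 0.35; limma adjusted p = 3.79e-11). Chr25_scale14 had 19.4 and 13.8 RPKM in feather and showed the largest difference of the class, 9.24 log2 units (SE 0.37; limma adjusted p = 1.16e-12). Chr25_scale17 had 4788 and 3642 RPKM against 16.7 and 8.6 RPKM in feather, a log2 difference of 8.32, and Chr25_scale16 had a difference of 7.85. Chr25_scale17 was also above the GFP scales (1599 and 1648 RPKM) by 1.36 log2 units (limma adjusted p = 5.64e-03). Against the GFP scales 4 of the 16 passed as higher and 0 as lower, as deposited and after median-ratio scaling. The background of all rows in that contrast was 7.97% higher and 15.2% lower as deposited, and 14% and 12.5% after scaling.

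The keratinocyte beta keratins were mixed. Of 14 tested, 9 were higher than in feather, 4 lower and 1 did not pass, and after scaling 8 were higher and 5 lower. The background of all rows was 77.5% higher and 9.59% lower as deposited, and 37.3% higher and 35.7% lower after scaling. The lower count is therefore above the background as deposited and at the background after scaling. Chr25_Ktn15 had 2290 and 2033 RPKM against 1.2 and 0.9 RPKM in feather, a log2 difference of 10.04 (SE 0.31; limma adjusted p = 7.31e-14). Chr25_Ktn13 had 1579 and 1445 RPKM against 0.3 and 1.1 RPKM, a log2 difference of 9.84. Chr25_Ktn12 had 251 and 236 RPKM and was listed at 0 in both feather samples (limma adjusted p = 1.06e-12). All 3 were present in the GFP scales. Chr25_Ktn15 had 1430 and 1789 RPKM there, which did not differ past the threshold (limma adjusted p = 0.336). Chr25_Ktn12 was 6.92-fold above the GFP scales (limma adjusted p = 1.48e-05) and Chr25_Ktn13 was 2.03-fold above them (limma adjusted p = 0.0412).

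The keratinocyte beta keratins that fell short of feather included the most abundant one of feather. Chr25_Ktn11 had 747 and 850 RPKM in the beta-catenin scales against 4546 and 2811 RPKM in feather, 4.61-fold lower (log2 difference -2.16, SE 0.38; limma adjusted p = 4.69e-05), and 760 and 922 RPKM in the GFP scales. Chr25_Ktn8 had 3.8 and 8.4 RPKM against 62.7 and 81.1 RPKM in feather, a log2 difference of -3.43 (SE 0.36; limma adjusted p = 1.33e-07). It was at 0.1 RPKM in both GFP samples. Chr25_Ktn1 had 209 and 156 RPKM against 442 and 519 RPKM in feather and 20.2 and 29.8 RPKM in the GFP scales. It was lower than feather by 1.40 log2 units (limma adjusted p = 1.05e-03) and higher than GFP by 2.83 log2 units (limma adjusted p = 2.63e-05). Chr6_BKJ, the single beta keratin outside the classes, had 0 and 0.1 RPKM in the beta-catenin scales and 13.2 and 16.5 RPKM in feather, a log2 difference of -3.91 (SE 0.15; limma adjusted p = 5.26e-13).

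Alpha keratins summed to 15386 and 15057 RPKM in the beta-catenin scales, 3489 and 4008 RPKM in feather, and 14486 and 15627 RPKM in the GFP scales. The beta-catenin mean was 4.06-fold above feather. As deposited 21 of 33 were higher than in feather and 6 lower, but after median-ratio scaling 14 were higher and 15 lower. The background was 77.5% higher and 9.59% lower as deposited, and 37.3% and 35.7% after scaling. The split of this class after median-ratio scaling is therefore near that of all rows. Scaled on the summed non-keratin RPKM, 17 of the 33 were higher and 11 lower, beside 6921 and 2296 of all 11863 rows. The roles given below are known from mammals. KRT5, KRT14 and KRT15, keratins of the basal epidermal layer, were all higher as deposited, by 2.51, 1.06 and 1.32 log2 units. After scaling KRT5 alone passed as higher (log2 difference 1.35), KRT14 had a difference of -0.11 and KRT15 of 0.16.

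KRT1 and KRT10, the pair of the differentiating suprabasal epidermis, were higher on both scales. KRT10 had 1900 and 2112 RPKM in the beta-catenin scales against 21.9 and 15.6 RPKM in feather, 107-fold higher (log2 difference 6.68, SE 0.22; limma adjusted p = 1.61e-13). KRT1 had 136 and 111 RPKM against 0.6 and 0.5 RPKM, a log2 difference of 6.32. KRT9, a keratin of the thick skin of palm and sole, had 377 and 397 RPKM against 4.5 and 3.7 RPKM, a log2 difference of 6.25 (SE 0.18; limma adjusted p = 2.51e-14). The GFP scales held all 3 at like levels, with 2670 and 2217 RPKM of KRT10, and none of the 3 passed the test between beta-catenin and GFP scales.

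The alpha keratins lower in the beta-catenin scales came from other groups. KRT75B, related to KRT75 of the hair follicle companion layer, was listed at 0 and 0.2 RPKM in the beta-catenin scales and had 177 and 300 RPKM in feather, a log2 difference of -7.72 (SE 0.31; limma adjusted p = 1.50e-12). KRT18, of simple epithelia, had 1.2 and 1.3 RPKM against 10.9 and 21.3 RPKM, a log2 difference of -2.86. KRT16B, related to the stress-induced KRT16, had 17.7 and 42.0 RPKM against 114 and 163 RPKM, a log2 difference of -2.28. It was the only one of these 3 above the GFP scales (1.1 and 1.4 RPKM), by 3.66 log2 units (limma adjusted p = 4.04e-05). Other members of the KRT16B and KRT75B groups were higher than in feather. Of the 6 stress keratins, 3 were higher and 1 lower as deposited, and 2 were higher and 3 lower after median-ratio scaling. The 4 keratins of the hair follicle companion layer and inner root sheath had 2 higher and 1 lower as deposited. After scaling they had 2 higher and 2 lower. Of the 5 keratins of simple epithelia, periderm and Merkel cells, 1 was higher and 3 were lower as deposited. All 5 were lower after median-ratio scaling, but only 3 after scaling each sample on its summed non-keratin RPKM. The background of all rows was 77.5% higher and 9.59% lower as deposited, and 37.3% and 35.7% after median-ratio scaling.

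**Figure D5:**
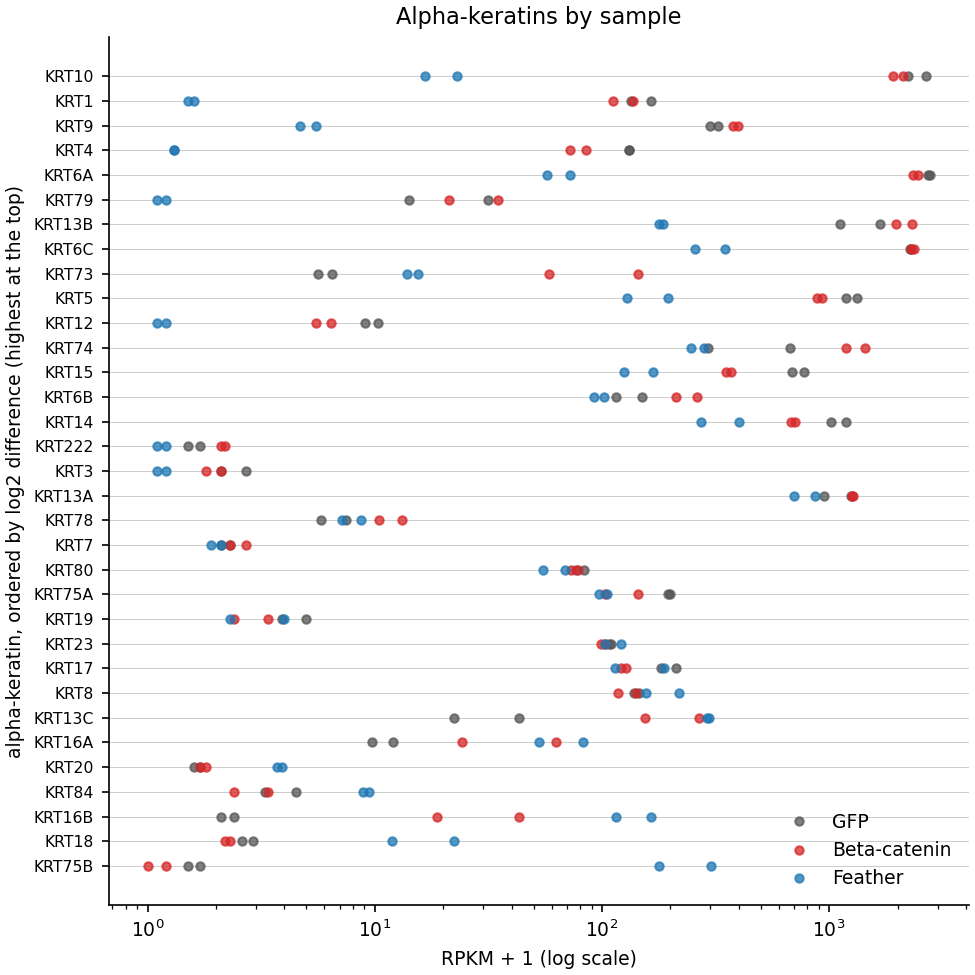
RPKM + 1 (log axis) of the 33 alpha keratins in each beta-catenin, feather and GFP sample, ordered by the difference between beta-catenin scales and feather. Each point is 1 sample. KRT10, KRT1 and KRT9 lie near the control scales and far above feather, while KRT75B is near 0 in both groups of scales.

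KRT23, KRT17 and KRT75A were among the 5 abundant keratins closest to feather. KRT23 had 101.8 and 98.5 RPKM in the beta-catenin scales against 102.4 and 119.9 RPKM in feather, a log2 difference of -0.14. KRT17, another stress-induced keratin, had 127 and 120 RPKM against 114 and 186 RPKM, a log2 difference of -0.24. KRT75A had 103 and 143 RPKM against 96.2 and 105 RPKM, a log2 difference of 0.27. The groups overlapped for KRT75A and KRT17 but not for KRT23, and none of the 3 passed the test as deposited. After median-ratio scaling all 3 were lower in the beta-catenin scales, by 1.31, 1.40 and 0.89 log2 units.

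The beta-catenin scales were then set against the 2 scale groups with the most feather keratin, in contrasts that hold no feather sample. These groups were chosen by that measure in these data, so lower feather keratins in the beta-catenin scales were built into the choice. The feather keratin counts against RA and Sox18 describe the size of the gap and are not independent evidence of it. Against the RA scales, 56 of the 84 feather keratins were lower and 4 higher, beside a background of 8.59% lower and 38.5% higher. After median-ratio scaling 58 were lower and 4 higher, beside 20.4% and 18.1%. All 7 chromosome 10 keratins, 12 of 14 chromosome 25 keratins and 34 of 59 chromosome 27 keratins were lower. Claw keratins were higher in 10 of 12 and scale keratins in 11 of 16, and the 3 feather-like keratins gave no call in either direction. After scaling these counts were 9 and 10, and 1 feather-like keratin was lower. For the chromosome 10 group the median level was 0.267% of feather in the beta-catenin scales and 11.8% in the RA scales.

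Against the Sox18 scales, 37 feather keratins were lower and 9 higher, beside a background of 15.9% lower and 31.7% higher. After median-ratio scaling 39 were lower and 7 higher, beside 25.6% and 26%. Without beta-catenin replicate 1 the lower count was 24, and without replicate 2 the higher count was 5. The chromosome 25 keratins were lower in 14 of 14, with a median level of 6.21% of feather in the beta-catenin scales and 34.3% in the Sox18 scales. The chromosome 27 keratins were lower in 17 of 59 and higher in 7. Their median levels were 20.2% of feather in the beta-catenin scales and 32.9% in the Sox18 scales. The chromosome 10 keratins were lower in 5 of 7, at medians of 0.267% and 0.775%. All 3 feather-like keratins were lower than in the Sox18 scales, where they summed to 1187 RPKM. Claw keratins were higher in 12 of 12 and scale keratins in 14 of 16, and in 11 and 12 after scaling.

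Against the GFP control scales, 50 of the 84 feather keratins were higher in the beta-catenin scales and 6 lower, beside a background of 7.97% higher and 15.2% lower. After median-ratio scaling 50 were higher and 5 lower, beside 14% higher and 12.5% lower. The chromosome 27 keratins had a median of 20.2% of feather in the beta-catenin scales against 3.92% in the GFP scales. The chromosome 25 keratins had medians of 6.21% and 3.41%. The contrasts with feather and with GFP share the beta-catenin samples.

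Among the 11700 tested rows with Ensembl identifiers, which the sources used here do not pair with gene names, 9129 were higher in the beta-catenin scales and 1062 lower as deposited. After scaling 4381 were higher and 4135 lower. The same rows were higher on both scales in 4381 cases and lower on both in 1062, and 1900 were higher as deposited but lower after scaling. Of the scaled calls, 1384 rows were higher and 1577 lower by at least 1 log2 unit, and 60 were higher and 43 lower by at least 4. These scaled counts are from median-ratio scaling. Scaled on the summed non-keratin RPKM instead, 6864 rows were higher and 2209 lower.

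The largest difference among them was in ENSGALG00000003406, with 1281 and 1112 RPKM in the beta-catenin scales and 0 and 0.1 RPKM in feather (log2 difference 10.15, SE 0.25; limma adjusted p = 5.02e-15). Outside the beta-catenin scales its highest value in the series was 15.9 RPKM, in a Spry2 sample, which sets the beta-catenin samples apart from all others in this row. ENSGALG00000022674 had 509 and 548 RPKM and was listed at 0 in both feather samples (limma adjusted p = 9.54e-14). It was also present in the GFP scales, at 771 and 829 RPKM, and in the RA and Spry2 scales, at 350 to 562 RPKM. In every Grem1, Sox2, Sox18 and Zic1-deltaC sample it had at most 1.7 RPKM, so this row does not separate scale from feather. In the other direction, ENSGALG00000021043 had 0.8 and 1.3 RPKM against 86.3 and 99.8 RPKM in feather, a log2 difference of -5.53 (SE 0.30; limma adjusted p = 4.05e-11). ENSGALG00000003603 had 0.4 and 1.0 RPKM against 57.0 and 79.5 RPKM, a log2 difference of -5.35 (SE 0.16; limma adjusted p = 4.94e-14). Both of these rows were also near 0 in the GFP scales, at 0.2 to 0.3 RPKM.

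Rows listed at 0 in one group and present in the other were mostly absent from feather. The large keratin share lowers the deposited value of all other rows there, and its part in this count was not tested. In feather 133 Ensembl rows were listed at 0 in both samples while reaching at least 1 RPKM in both beta-catenin samples, where they summed to 2078 and 2172 RPKM. Of these 133, 71 reached 1 RPKM in both GFP samples and 32 were listed at 0 in both. In 25 of the 133 the row reached 1 RPKM in every beta-catenin, Grem1 and Spry2 sample and was listed at 0 in all others, so these rows do not separate scale from feather; a batch or annotation difference was not tested. The reverse held for 9 rows, which summed to 40.6 and 29.2 RPKM in feather.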

How the data were processed

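RNA from 20 samples in 9 groups was sequenced from TruSeq libraries. Per the submitters' processing notes, TopHat2, Partek and the galGal4 genome were used; their versions, and how reads were divided between near-identical genes, were not stated. The deposited RPKM values, which the authors normalized per kilobase of gene and by sequencing depth, were used as they stood. The samples of each group were taken by their labels, but the comparison itself and the gene lists were chosen with earlier results of these data known.

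Values were taken as log2(RPKM + 1), rows with at least 1 RPKM in at least 2 samples were kept (11863 of 16290), and limma 3.58.1 in R 4.3.3 was fitted to all 20 samples with an intensity trend. The spread had 11 residual and 5.35 prior degrees of freedom. P-values were adjusted by Benjamini-Hochberg over all tested rows, with a threshold of 0.05. The test was checked on simulated data with normal noise around a mean shared by all groups and changes planted in some rows. The simulation held no shift in keratin share. It cannot show how the test behaves under such a shift or with technical replicates. Fold changes understate the change of low rows because of the pseudocount of 1, except where given as ratios of mean RPKM.

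Named keratins were the 3 highest and 3 lowest differences in each class that passed and did not overlap, the 3 most abundant in each group, the 5 closest with at least 50 RPKM in both groups, and classes of 3 or fewer. Median-ratio scaling used 11635 rows and other alternatives are given in the closing section. Replicate numbers were not taken as pairs. None of the Ensembl identifiers matched the reference table of names. No sequence is printed.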

Additional observations from a re-analysis of the deposited data

How the results depend on the processing

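As deposited, 9194 rows were higher and 1138 lower in the beta-catenin scales. The higher count was 5730 with a mean of at least 5 RPKM required, 4430 after median-ratio scaling and 4226 after quantile normalization. The lower count was 744, 4230 and 4074 in the same order. After scaling on the non-keratin sum, 6921 rows were higher and 2296 lower. Feather keratins counted as higher numbered 3 with the mean of at least 5 RPKM, 3 after median-ratio scaling, 3 after quantile normalization and 2 with only the 2 groups, against 5, and ranged from 3 to 6 with single samples left out. Scale keratins higher numbered 9 after median-ratio scaling. Alpha keratins lower numbered 15, 11 and 13 after median-ratio, non-keratin and quantile scaling, against 6. Against the RA scales, 2 feather keratins were higher with the mean of at least 5 RPKM; this and the other settings for RA and Sox18 were chosen after seeing the data. Against the Sox18 scales, leaving out single samples gave 5 to 10 higher and 24 to 38 lower feather keratins.

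The log2 ratios of class sums, given after median-ratio scaling, after non-keratin scaling and as a share of keratin RPKM, were -4.79, -4.25 and -1.69 for feather keratins (main -3.59; -3.97 to -3.30 with single samples left out). For feather-like keratins the median-ratio value was 2.51 and the share 5.64 (main 3.72; 2.94 to 4.22). For claw keratins they were 8.51, 9.04 and 11.59 (main 9.69), and for scale keratins 5.90, 6.43 and 9.0 (main 7.09). For keratinocyte beta keratins they were -0.51, which turns the direction, 0.03 and 2.60 (main 0.69; 0.45 to 0.98). For alpha keratins they were 0.86, 1.38 and 3.90 (main 2.02; 1.93 to 2.13).

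Of 515 values of single named keratins under the alternatives, 490 kept their direction and their side of the threshold, 2 lost the call, 9 gained one and 14 turned direction. The turned ones were the keratins nearest to feather. Chr27_FK7 went from 0.01 to -1.16, -0.63 and -0.51 after median-ratio, non-keratin and quantile scaling, -0.25 without beta-catenin replicate 2 and -1.25 without feather replicate 2, and to 1.27 without feather replicate 1. Chr27_FK5 went from 0.06 to -1.10, -0.58, -0.42, -0.20, -0.96 and 1.09 in the same order. KRT17 went from -0.24 to 0.12 without feather replicate 2 and -0.59 without feather replicate 1, and KRT75A from 0.27 to -0.89, -0.37 and -0.23 under the scalings. The cause was not tested.

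The replicate block gave 9183 rows higher and 1131 lower. The replicate differences of the beta-catenin scales and of feather had a correlation of -0.11 over all rows. Each group gives only a single such difference, so this cannot show whether same-numbered samples were paired. The crossed pairing, chosen after seeing the data, gave 9176 and 1132. Depth is unknown, so levels near 0 RPKM carry no stated limit of detection.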

Other observations

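Some Ensembl rows set feather apart from every other group. In 36 of them both feather samples were more than 4 times above all 18 other samples. These 36 summed to 2023 and 2742 RPKM in feather and to 173 and 176 RPKM in the beta-catenin scales. The rows were picked by this gap, so the sums give its size and are not separate evidence of it. Only 2 rows were that far above all other samples in the beta-catenin scales. These counts are not alike, because feather is the only group not taken from scale, while beta-catenin was set against other scale groups too. The most abundant Ensembl row of feather had 27552 and 20404 RPKM there, 14.3% and 9.57% of the RPKM of all Ensembl rows, and 2380 and 2184 RPKM in the beta-catenin scales (log2 difference -3.38, SE 0.31; limma adjusted p = 2.75e-08).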
